A study of Caenorhabditis elegans with 2 samples.

Results

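The peaks described here are sites recovered with tagged DMD-9, a DM-domain transcription factor, at the tRNA genes of Caenorhabditis elegans. A peak of the pooled list was taken when its summit, the base of strongest enrichment, lay within 100 bp of a nuclear gene annotated as tRNA. The rule took 221 of the 1379 pooled peaks (16%, exact 95% interval 14.1% to 18.1%), and 232 of 612 nuclear tRNA genes (37.9%, which is also the background for any subset of these genes) had such a summit. Of the 221 peaks, 210 lay near 1 tRNA gene and 11 lay near 2.

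The series holds 1 group of 2 biological replicates of chromatin immunoprecipitation and sequencing (ChIP-seq) from whole worms of strain RJP5357 at the L4 larval stage, 48 hours old, after bleaching and L1 starvation. All carried GFP, AID, TEV and 3xFLAG inserted into the endogenous dmd-9 gene by CRISPR, and anti-GFP antibody was used on chromatin sonicated to 200 to 800 bp. Whole animals were used, so cell types are mixed. Worms without the tag were not analysed here and the control library was not used here, so how much of the signal at tRNA genes depends on the tagged protein was not tested.

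Transfer RNAs bring amino acids to the ribosome, and their genes are copied by RNA polymerase III. The promoter lies inside the gene: the factor TFIIIC binds an A box near the 5' end and a B box further in, and TFIIIB then sits just upstream and recruits the polymerase, which stops at a run of T after the gene. Many worm tRNA genes are exact copies of one another, and many lie in introns of other genes or in groups.

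Gene sequences under strong peaks, each nearest to the strongest peak summit of its isotype (the amino acid the tRNA carries; a gene that shares a peak with a nearer one is left out), are shown first because the boxes and the copies are read from them. Each runs 5' to 3' on the gene's strand, from the RefSeq genome of WBcel235, with the A box and the B box core GTTCNANNC in capitals. T23F1.t1 is a lysine gene at chrV:15465086-15465158 on the + strand, F15G9.t1 an alanine gene at chrX:9743589-9743660 on the + strand, C04A11.t1 a leucine gene at chrX:13665555-13665673 on the + strand, and W09G10.t1 a histidine gene at chrII:3521487-3521558 on the - strand. W09D6.t2 is a proline gene at chrIII:11066848-11066919 on the - strand, R11.t1 a tyrosine gene at chrX:16209769-16209852 on the - strand, and R04A9.t1 a glutamine gene at chrX:410391-410462 on the + strand.
T23F1.t1: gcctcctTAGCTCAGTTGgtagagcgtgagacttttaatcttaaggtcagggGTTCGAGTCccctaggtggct
F15G9.t1: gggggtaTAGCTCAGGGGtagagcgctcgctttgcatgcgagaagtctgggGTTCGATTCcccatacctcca
C04A11.t1: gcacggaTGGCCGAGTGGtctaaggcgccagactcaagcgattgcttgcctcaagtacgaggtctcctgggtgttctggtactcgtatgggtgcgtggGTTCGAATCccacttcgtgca
W09G10.t1: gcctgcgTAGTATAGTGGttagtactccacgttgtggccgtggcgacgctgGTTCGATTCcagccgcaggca
W09D6.t2: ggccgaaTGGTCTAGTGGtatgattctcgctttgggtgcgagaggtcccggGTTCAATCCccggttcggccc
R11.t1: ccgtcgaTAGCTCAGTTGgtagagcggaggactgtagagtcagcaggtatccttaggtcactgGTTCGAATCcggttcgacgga
R04A9.t1: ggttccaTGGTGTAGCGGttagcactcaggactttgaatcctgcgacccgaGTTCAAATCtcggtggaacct

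The peak at C04A11.t1 is shown whole, with the gene in its window. At 119 bp this gene is longer than the median of 73 bp for genes at the 221 peaks. C04A11.t1 is present once in the genome, has an intron of its own, and lies outside any protein-coding gene. Its peak, of 284 bp like 219 of the 221, is chrX:13665431-13665714 on the + strand of WBcel235, printed with the gene in capitals, and its summit was 18 bp inside the gene.
C04A11.t1 peak: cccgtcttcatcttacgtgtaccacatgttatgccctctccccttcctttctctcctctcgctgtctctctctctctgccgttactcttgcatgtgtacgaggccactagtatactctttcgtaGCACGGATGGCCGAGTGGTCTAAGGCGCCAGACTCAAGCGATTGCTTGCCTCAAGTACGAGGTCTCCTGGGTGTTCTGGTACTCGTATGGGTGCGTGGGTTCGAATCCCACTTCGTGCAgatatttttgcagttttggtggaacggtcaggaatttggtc

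Copies of 1 sequence can differ only in what lies around them, so 2 of the 24 identical proline genes are shown with 60 bp of upstream sequence and the gene in capitals. W09D6.t2, at chrIII:11066848-11066979 with its upstream bases, had a pooled peak of signal 159.7, with 84.4 in replicate 1 and 71.0 in replicate 2. Its summit also lay within 100 bp of W09D6.t1, another proline gene beside it, so the peak counts for both genes. F23D12.t1, at chrX:14438042-14438173 with its upstream bases on the + strand, had no ranked summit within 100 bp in the pooled list or in either replicate, but it was not outside a peak. The pooled peak of F23D12.t2, another copy beside it on the - strand, had a signal of 99.7. At chrX:14437851-14438134, that peak covers all the upstream bases printed for F23D12.t1 and the start of that gene. Its summit was just past the limit of 100 bp from F23D12.t1. Each place is thus a pair of proline genes with 1 peak, and the 100 bp limit sets which genes of the pair are counted.
W09D6.t2 with upstream: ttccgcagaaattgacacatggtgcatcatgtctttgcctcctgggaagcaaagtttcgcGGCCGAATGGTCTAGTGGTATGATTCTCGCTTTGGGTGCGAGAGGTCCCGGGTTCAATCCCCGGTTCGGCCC
F23D12.t1 with upstream: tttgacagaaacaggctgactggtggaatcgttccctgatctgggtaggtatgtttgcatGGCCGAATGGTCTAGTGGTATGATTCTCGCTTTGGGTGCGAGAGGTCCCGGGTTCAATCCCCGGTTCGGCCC

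The summits lay mostly inside the tRNA genes and not before them. Measured along the gene's strand, with 0 at its first base, the 221 summits had a median position of 25 bp (interquartile range 0 to 46 bp), in genes of median length 73 bp. The summit was within the gene in 151 peaks (68.3%), upstream in 52 (23.5%) and downstream in 18 (8.14%), and 190 (86%) were inside or within 25 bp of the gene. Positions from 0 to 19, 20 to 39 and 40 to 59 bp held 42, 53 and 48 summits. The A box began at a median of 7 bp and the B box core at 52 bp. Of the 214 peaks at genes with that core, 124 (57.9%) had their summit from the A box start to the core end. That stretch covers most of the gene, and the share that position alone would place there was not tested. Nearly all the peaks are longer than their gene and come from sonicated chromatin, so this count does not tell the boxes apart.

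**Figure D1:**
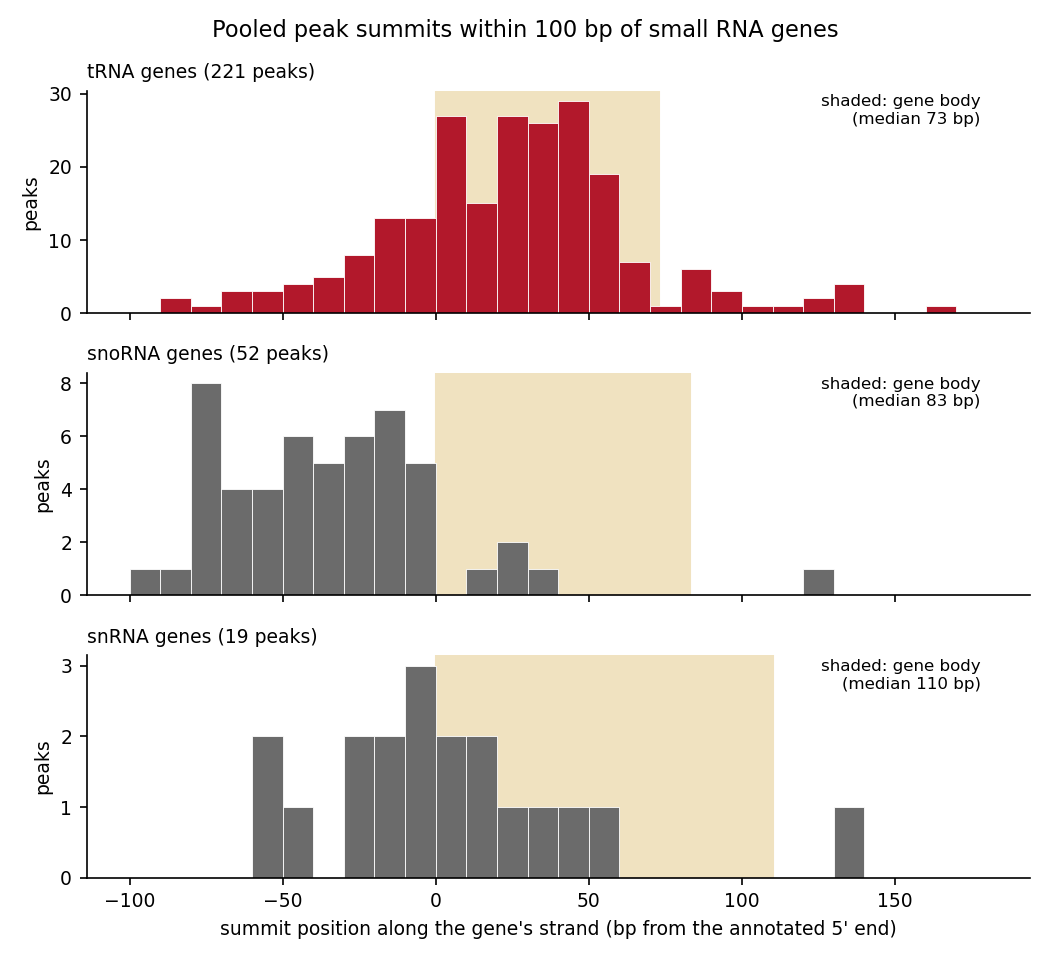
Histograms of pooled peak summits (x axis, bp from the annotated 5' end along the gene's strand; y axis, peaks per 10 bp) near tRNA, snoRNA and snRNA genes, with the median gene body shaded. Summits near tRNA genes lay mainly inside the gene (151 of 221), those near snoRNA genes mainly upstream (47 of 52).

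Summits near snoRNA genes in the same list had another position, and the median near snRNA genes lay between. The 52 summits within 100 bp of a snoRNA gene, whose RNA guides chemical changes of other RNAs, had a median position of -38.5 bp, with 47 (90.4%) upstream and 4 (7.69%) inside the gene. The 19 near a snRNA gene, the class that holds the spliceosomal RNAs, had a median of -2 bp, with 10 upstream and 8 inside. Their interquartile range, -22 to 24 bp, overlaps that of the tRNA gene summits. Of these 19, 16 (84.2%) were inside or within 25 bp of the gene, close to the 86% at tRNA genes, against 20 (38.5%) of the 52 at snoRNA genes. Peaks of 1 list share their chromatin and libraries and are no replicates, so these differences are given with no test.

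The position was alike on both strands. It had a median of 27 bp in the 113 peaks at + strand genes and 24.5 bp in the 108 at - strand genes. In the 38 peaks at genes whose sequence occurs once the median was 21 bp and 23 summits (60.5%) were inside the gene, and in the 183 at repeated genes it was 27 bp with 128 (69.9%) inside. By strength, the 74 strongest peaks had a median of 20 bp with 25 (33.8%) upstream and 2 downstream, the next 74 a median of 29 bp with 11 (14.9%) upstream and 6 downstream, and the 73 weakest a median of 30 bp with 16 (21.9%) upstream and 10 (13.7%) downstream. The upstream share thus followed no steady order. Signal had a median of 97.3 for summits inside the gene, 99.2 upstream and 77.6 downstream.

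The limit of 100 bp fell where few peaks lay. Summits 1 to 25 bp from a tRNA gene numbered 39, those 26 to 50 bp away 16 and those 51 to 100 bp away 15, against 6 at 101 to 200 bp and 2 at 201 to 500 bp. Just inside were the peaks at B0244.t3 (93 bp, signal 67.1), M01E5.t1 (88 bp, 143.6) and ZK154.t3 (82 bp, 114.2). Just outside were those at F52H2.t2 (102 bp, 85.9), C10G8.t1 (107 bp, 73.8) and C24H11.t1 (114 bp, 27.8). F52H2.t2 also had a second, weaker summit inside the limit, with a signal of 10.4.

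Peaks at tRNA genes were of middling to high strength and rarely the very strongest. Signal is the value of enrichment that the authors' peak caller gave each peak, in a unit the files do not name. Its median was 96.6 at the 221 tRNA gene peaks (interquartile range 78.0 to 120.9) and 83.5 at the other 1158 (71.1 to 119.5), a ratio of 1.16, but the highest was 227.6 at tRNA genes and 750.2 elsewhere. Only 6 of the 100 strongest pooled peaks were at tRNA genes, against 40 of the next 200 (20%), 80 of the 300 after that (26.7%) and 49 of the last 479 (10.2%).

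**Figure D2:**
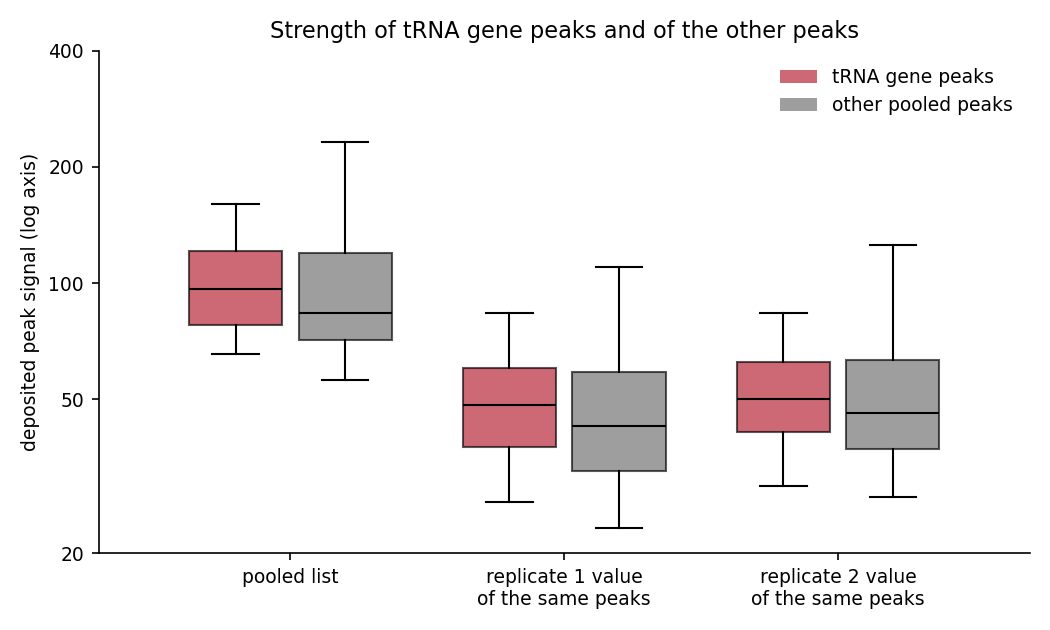
Deposited peak signal (y axis, log scale) of the tRNA gene peaks (left of each pair) and the other pooled peaks, in the pooled list and for the same peaks in each replicate's ranked list; lines are medians, boxes quartiles and whiskers the 5th and 95th percentiles. The medians are 96.6 and 83.5 in the pooled list, 48.3 and 42.6 in replicate 1, and 50.3 and 46.1 in replicate 2.

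The same pooled peaks had the same order of medians in each replicate's ranked list. In replicate 1 the median was 48.3 at 219 tRNA gene peaks and 42.6 at 1142 others, a ratio of 1.13, and in replicate 2 it was 50.3 at 217 and 46.1 at 1143, a ratio of 1.09. The thresholded list of each replicate gave the other order. There the tRNA gene peaks had a median of 59.4 against 66.0 for the rest in replicate 1 (ratio 0.900), and 63.0 against 71.2 in replicate 2 (ratio 0.885). Those lists hold the peaks that passed the authors' threshold in that replicate alone, 115 of 569 (20.2%) at tRNA genes in replicate 1 and 96 of 545 (17.6%) in replicate 2. The ratio was also below 1 among pooled peaks under a stricter threshold, 0.875 at an IDR of 0.001 or under and 0.897 at a q value of 0.05 or under, so the direction of this difference depends on the list.

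Calls in replicate 1 and in the conservative list were more frequent at tRNA genes than over the whole list, and those in replicate 2 were closer to it. A thresholded peak of replicate 1 overlapped 111 of the 221 (50.2%, exact 95% interval 43.4% to 57.0%) against 440 of the 1158 others (38%), with 40% over all pooled peaks. In replicate 2 the numbers were 96 (43.4%, 36.8% to 50.3%) and 426 (36.8%), with 37.9% over all, and in both replicates together 67 (30.3%, 24.3% to 36.8%) and 301 (26%), with 26.7% over all. These 2 intervals include the share over all peaks. The conservative list, made by setting the replicates against each other, had the same summit for 191 tRNA gene peaks (86.4%, 81.2% to 90.7%) and 898 others (77.5%), with 79% over all.

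Measures of reproducibility and enrichment were mixed. The irreproducible discovery rate (IDR), an estimate of the share of peaks that would not recur, was 0.001 or under for 81 tRNA gene peaks (36.7%, 30.3% to 43.4%) and 363 others (31.3%), with 32.2% over all, inside the interval. The deposited q value, a measure of enrichment, was 0.05 or under for 137 (62%, 55.2% to 68.4%) and 534 (46.1%), with 48.7% over all. The signals of both replicates had a lower rank correlation at tRNA genes, 0.445 over 215 peaks, against 0.553 over 1127 others. These points share libraries and genome neighbourhoods, and the values at tRNA genes span a narrower range.

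The strongest peaks were at M02F4.t1, F41D9.t3 and T23F1.t1. M02F4.t1, a glycine gene at chrX:3036164-3036235 on the + strand, had a pooled signal of 227.6, with 101.0 in replicate 1 and 132.1 in replicate 2, and its summit was 14 bp upstream of the gene. F41D9.t3, an asparagine gene on the opposite strand to its host sulp-3, in an intron, had 225.2, with 114.8 and 97.6 in replicates 1 and 2. Both replicates ranked them among their highest tRNA gene values. T23F1.t1 had 222.4, with 90.9 in replicate 1 and 122.2 in replicate 2, and shared its peak with a proline gene.

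The next were an alanine, a serine, a glutamic acid and a leucine gene, all on the X chromosome. F15G9.t1, in a him-4 intron on the same strand, had a pooled signal of 201.0, with 108.6 in replicate 1 and 90.0 in replicate 2. C53C7.t2, whose summit was 45 bp upstream of its gene, had 197.8, with 74.1 and 110.9 in replicates 1 and 2. The summit at C28G1.t1, a glutamic acid gene that overlaps an exon of C28G1.2, was 5 bp upstream, and its signal was 194.4, with 89.4 in replicate 1 and 91.2 in replicate 2. C04A11.t1 had 180.7, with 74.2 and 102.5 in replicates 1 and 2. The remaining peaks of the top 10 were at C33G3.t2 (178.2), a lysine gene with the same sequence as T23F1.t1, and at the glycine genes F56C3.t1 (176.3) and T10B10.t2 (162.1). Of these 10, 9 were on X, against 106 of all 221 tRNA gene peaks. All 10 overlapped thresholded peaks in both replicates, against 67 of the 221 (30.3%). The 10 were picked by a signal pooled from these same replicates, so these calls are no separate support. Their values ranged from 74.1 to 114.8 in replicate 1 and from 74.8 to 132.1 in replicate 2.

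The weakest members were a pair beside stronger peaks. F42A10.t2, a serine gene, had a pooled signal of 2.75 and a q value of 0.934, and its window overlaps the peak at the neighbouring serine gene F42A10.t1, which had 124.5. The replicate peaks that overlap it, of signal 60.8 in replicate 1 and 56.6 in replicate 2, are the same ones that overlap the peak at F42A10.t1, so the replicates give no value for F42A10.t2 alone. F52H2.t2 had 10.4 in the pooled list, and the replicate peaks that overlap it, of signal 37.6 and 50.2 in replicates 1 and 2, likewise overlap its stronger neighbour summit. The next weakest, T23H4.t1 (55.5), K11E4.t6 (58.2) and F33D11.t2 (58.2), were called in neither replicate.

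Peaks were found at genes of all 20 standard isotypes. By the gene nearest the summit, the highest peaks of the isotypes ran from 227.6 for glycine to 113.3 for tryptophan at B0523.t1, in an intron of fli-1. Of these 20, 18 were called in both replicates, against 67 of all 221 (30.3%), but they were picked by a signal pooled from both. The exceptions were B0523.t1 and the cysteine gene C37A2.t1 (117.0, in an intron of cye-1), both called in replicate 2 only. The isotypes whose genes with a peak had the highest median signal were proline (121.7, 13 of 42 genes with a peak), leucine (118.8, 15 of 39) and serine (111.9, 15 of 39). These medians are over genes, so a peak within 100 bp of 2 genes counts for each. At proline genes the peak of 159.7 counts for W09D6.t2 and W09D6.t1, and that of 148.7 for C16B8.t2 and C16B8.t3. The proline gene T23F1.t2 has the value of 222.4 from the peak inside the lysine gene T23F1.t1. The proline median therefore does not describe separate peaks. The lowest were aspartic acid (84.9, 16 of 27), glutamine (87.1, 7 of 27) and alanine (87.9, 14 of 34). Aspartic acid thus had the lowest median signal and also the highest share of genes with a peak, 59.3%. Other isotypes went the other way. Glutamine was low in both, with a share of 25.9%. Lysine, with 45.7% and a median of 101.7, was above all tRNA genes in both (37.9% and 96.8). No correlation over the isotypes was computed. In replicate 1 alone 3 of the 27 aspartic acid genes were called (11.1%, against 20.1% of all tRNA genes). In replicate 2 alone 8 were called (29.6%, against 17%), the highest share of any isotype there. The 1 gene for selenocysteine, K11H12.t1, and the 5 with no isotype given in RefSeq had no pooled peak.

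**Figure D3:**
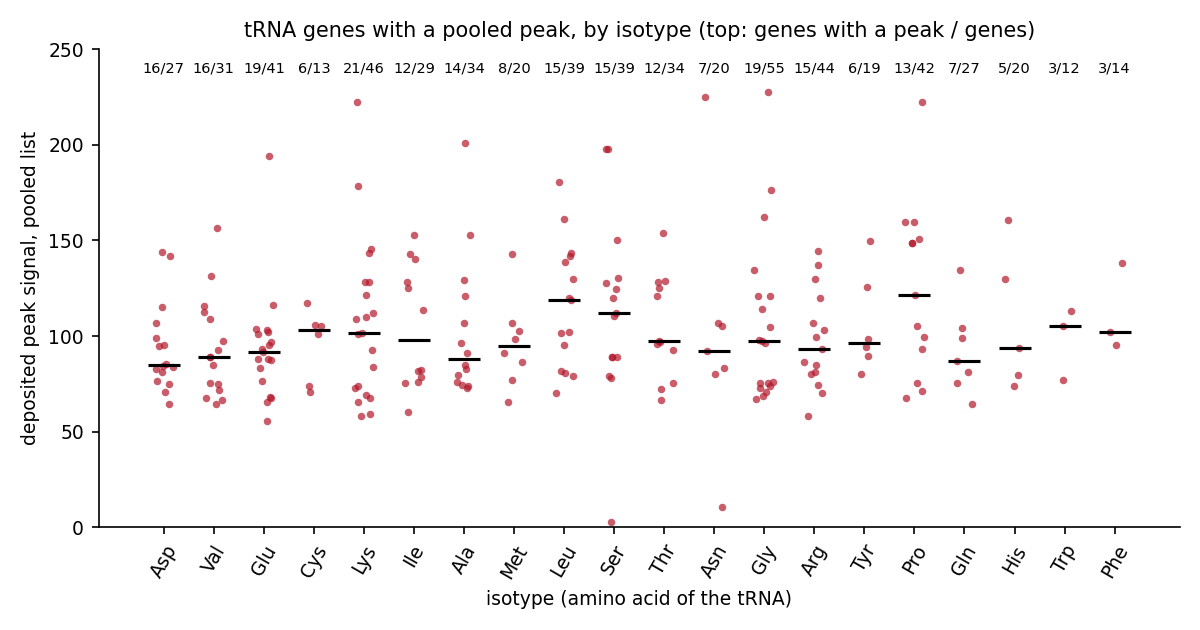
Deposited pooled signal (y axis) of each tRNA gene with a peak, by isotype (x axis, ordered by the share of genes with a peak); each point is 1 gene, bars are medians, and the counts at the top are genes with a peak over all genes. The lowest points are F42A10.t2 (Ser, 2.75) and F52H2.t2 (Asn, 10.4).

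Copies of the same tRNA gene sequence differed in signal. The 612 genes have 200 distinct sequences, of which 143 occur once and 57 are repeated in 469 genes. Among the 57 repeated sequences, 6 had a peak at every copy, 7 at none and 44 at some, and all 32 sequences with at least 5 copies were of the mixed kind. A glycine sequence with 29 copies had a peak at 12, of signal 68.5 to 227.6, 9 more copies had a ranked peak under the threshold and 8 had no ranked summit within 100 bp. A lysine sequence with 25 copies had peaks at 13 (58.2 to 145.6), and the proline sequence with 24 copies printed above had peaks at 10 (67.8 to 222.4), 11 ranked peaks under the threshold and 3 copies with none. Peaks near 2 genes count at each: the proline value of 222.4 is that of the peak inside the lysine gene T23F1.t1. The peak of 159.7 counts for both W09D6.t2 and W09D6.t1.

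**Figure D4:**
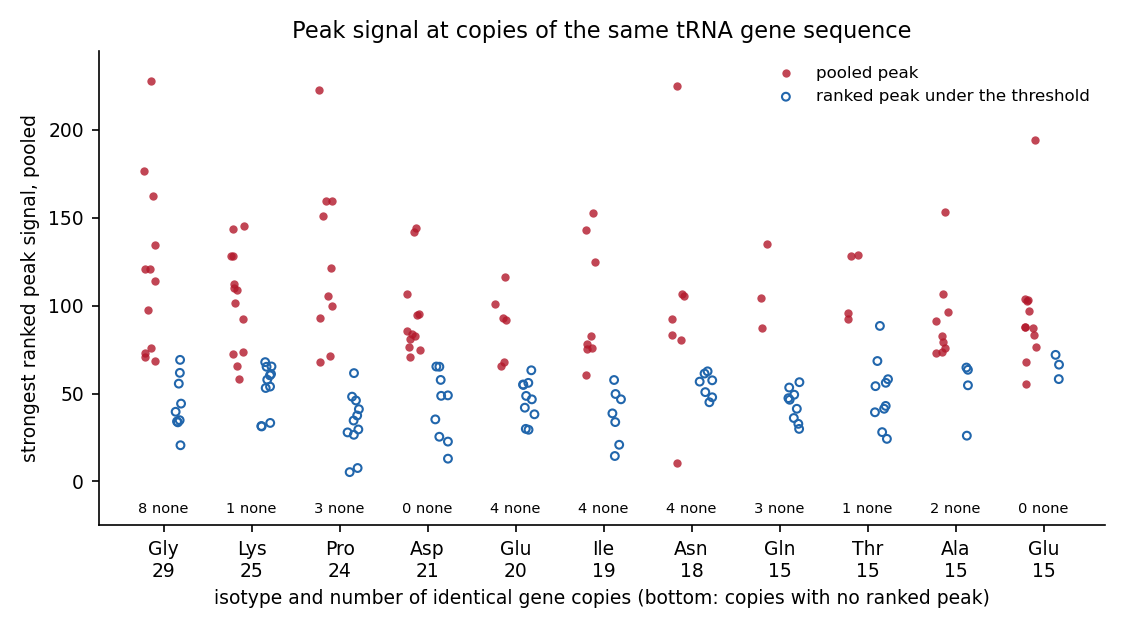
Strongest pooled ranked peak signal (y axis) within 100 bp of each copy of the tRNA gene sequences with at least 15 copies (x axis, isotype and number of copies). Filled points are copies with a pooled peak, open points copies with a ranked peak under the threshold, and the counts at the bottom are copies with no ranked peak; the 29 glycine copies run from none to 227.6.

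Genes whose sequence occurs once had a lower share with a peak than repeated ones. A peak was present at 40 of 143 single genes (28%), 29 of 67 genes with 2 to 4 copies (43.3%), 33 of 85 with 5 to 9 (38.8%), 77 of 198 with 10 to 19 (38.9%) and 53 of 119 with 20 or more (44.5%). A sequencing read that lies wholly inside a repeated gene cannot be assigned to 1 copy. How such reads were treated is not given in the sources used here, and its part in these values was not tested.

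Genes with a peak and genes without were alike in most promoter letters. The B box core GTTCGANNC, preceded by G and followed by C, and the looser GTTCNANNC were sought on the gene's strand, as was TTTT within 30 bp after the gene. The shorter core GTTCGANNC alone was present in 165 of the 232 genes with a peak (71.1%) and 276 of the 380 without (72.6%), and in 441 of all 612 (72.1%). With the flanking G and C it was present in 150 (64.7%) and 244 (64.2%), and the looser core in 224 (96.6%) and 363 (95.5%). Windows of the same length placed 300 bp downstream held the looser core in 9 cases (1.47%).

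The A box was found in all 232 genes with a peak, against 360 of the 380 without (94.7%). None of the 20 genes lacking it had a pooled peak, where an exact 95% interval for 0 of 20 reaches 16.8%, and 18 of them have a sequence that occurs once. TTTT followed all 232 genes with a peak and 373 of those without (98.2%), against 219 of the windows placed downstream (35.8%). A match is a description of letters and not of binding.

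Pseudogenes that resemble tRNA genes rarely had a peak. A pooled summit lay within 100 bp of 232 of the 612 genes (37.9%), against 3 of 209 tRNA pseudogenes annotated in RefSeq (1.44%, exact 95% interval 0.297% to 4.14%). The 3 were C52E12.t1 on chromosome II (156.1), T08B2.t1 on chromosome I (134.1) and D1046.t1 on chromosome IV (104.1), and none of these peaks is among the 221. C52E12.t1 had 66.3 in replicate 1 and 79.6 in replicate 2. The A box was present in 196 pseudogenes (93.8%) and the looser B box core in 165 (78.9%), against 96.7% and 95.9% of tRNA genes. The shorter core GTTCGANNC was in 144 pseudogenes (68.9%), against 72.1% of tRNA genes. With the flanking G and C it was in 135 (64.6%), against 64.4%.

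Many tRNA genes without a pooled peak had a weaker one among the ranked peaks that failed the threshold. Of the 380, 268 (70.5%, exact 95% interval 65.7% to 75.1%) had a ranked summit within 100 bp. The strongest at each gene had a median signal of 45.1 (interquartile range 34.1 to 57.9). All 112594 ranked peaks, taken singly and so not a like measure, had a median of 22.5 and a 90th percentile of 43.0. The share of other windows of this size that hold a ranked summit was not measured. Among the pseudogenes 117 (56%) had one, with a median of 25.7. Some genes were close to the threshold: 33 of those without a peak had an IDR of 0.02 or under and 75 of 0.05 or under, where the pooled list ends at 0.01.

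The replicates each showed this order. A ranked summit in replicate 1 was present at 225 of the genes with a peak (97%, median signal 48.3), 221 of those without (58.2%, 25.7) and 64 pseudogenes (30.6%, 18.0). In replicate 2 it was present at 223 (96.1%, 50.5), 220 (57.9%, 27.9) and 66 (31.6%, 19.3). Over the 369 tRNA genes with a value in both, the rank correlation was 0.636, and over the 153 of these without a pooled peak it was 0.222. The pooled list was made from both replicates, so the genes with a peak are those strong in them by construction.

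**Figure D5:**
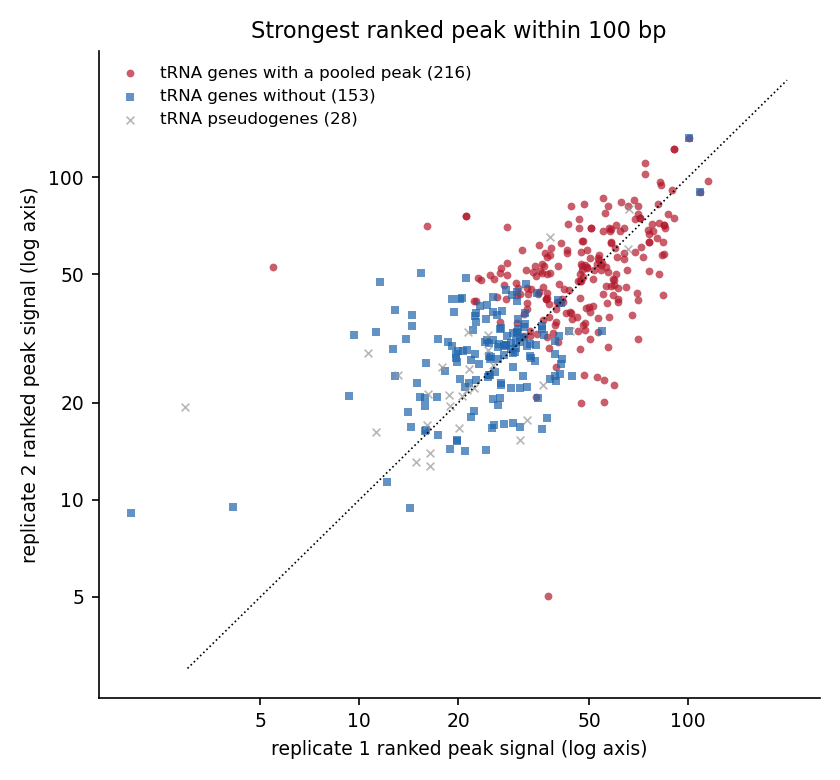
Signal of the strongest ranked peak within 100 bp of each tRNA gene or pseudogene in replicate 1 (x axis) and replicate 2 (y axis), both on log scales, for those with a value in both; the dotted line marks equal values. Genes with a pooled peak lie mostly above those without, whose medians are 25.7 and 27.9; 2 genes without a pooled peak reach the top because they neighbour M02F4.t1 and F15G9.t1.

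A peak was about as frequent at tRNA genes in each setting relative to protein-coding genes. A peak was present at 57 of 160 genes in an intron of a protein-coding gene on the same strand (35.6%), 43 of 123 in an intron on the opposite strand (35%), 4 of 10 that overlap an exon and 128 of 319 outside protein-coding genes (40.1%). The peaks numbered 55, 42, 4 and 120 in these settings, with median signals of 94.1, 97.2, 103.7 and 97.1. In all, 101 peaks lay in 96 host genes. Only 50 of the 221 summits (22.6%) were in the window from 1000 bp upstream to 200 bp downstream of a protein-coding 5' end, against 548 of the 1158 others (47.3%). The strands were also close, with a peak at 117 of 298 genes on the + strand (39.3%) and 115 of 314 on the - strand (36.6%).

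Chromosome V had the lowest share of tRNA genes with a peak. A peak was present at 19 of 78 tRNA genes on V (24.4%, exact 95% interval 15.3% to 35.4%) and 29 of 64 on III (45.3%, 32.8% to 58.3%), the highest. On V 7 genes (8.97%) were called in replicate 1 and 9 (11.5%) in replicate 2, again the lowest share of the 6 chromosomes in replicate 1. The 106 peaks on X had a median signal of 100.9 and the 115 on autosomes 95.3, whereas the other peaks had 80.2 on X and 84.4 on autosomes. The replicates were split on this: the tRNA gene peaks had medians of 47.8 on X and 48.9 on autosomes in replicate 1, and 52.2 and 48.6 in replicate 2.

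Large groups of neighbouring tRNA genes had few peaks. With genes at most 1000 bp apart joined, 236 genes formed 100 clusters, and 83 of them had a peak (35.2%), against 149 of 376 single genes (39.6%). In clusters of 3 or more genes 21 of 80 had one (26.2%, exact 95% interval 17.0% to 37.3%; 10% in replicate 1 and 5% in replicate 2), and in pairs 62 of 156 (39.7%). The largest, 6 genes of 4 isotypes from F22F1.t2 to F22F1.t7 on X, had 1 peak, of signal 76.8. Another 6 genes, all for histidine, from F28H6.t2 to F28H6.t5, had none, nor did 5 glutamine genes from H08J11.t5 to H08J11.t3 or 5 genes from K01A12.t1 to K01A12.t3, all on X. The clusters with most peaks had 3: a lysine trio in an intron of pix-1, from K11E4.t4 to K11E4.t6 on X, with signals of 72.6, 59.0 and 58.2, and Y65A5A.t1 to Y65A5A.t4 on IV, where 3 of 4 genes had peaks of 91.0, 89.0 and 72.9. With 3 or more genes the signal of peaks had a median of 76.8, against 98.2 for single genes. A peak of 284 bp on chromatin sheared to 200 to 800 bp cannot separate close neighbours.

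Of 19 other listed genes copied by RNA polymerase III, 2 had a pooled summit within 100 bp, against 232 of 612 tRNA genes (37.9%). The list was made of 5S rRNA genes, rpr-1, mrpr-1 and yrn-1, and it held no snRNA gene. The 2 with a summit were rpr-1, the RNA of RNase P, which trims the 5' end of tRNA precursors (213.2), and mrpr-1, the RNA of RNase MRP (127.9). The gene yrn-1 had none. None of 16 annotated 5S rRNA genes had one, though 5 had a ranked summit. Among these, 1 copy of rrn-4.2 with a ranked signal of 76.7 and an IDR of 0.00111 is absent from the pooled list. Most 5S genes lie side by side on chromosome V, from 17115903 to 17131456, and many share the symbol rrn-4.2. How reads from such neighbouring copies were assigned is not given, and its part in this count was not tested. The protein-coding genes of the tRNA machinery, listed as polymerase III subunits, its factors and enzymes that process tRNA, had a summit at the 5' end in 0 of 16, where 775 of 19973 protein-coding genes had one (3.88%). In the list of replicate 2, tftc-3, a TFIIIC subunit, had a summit of signal 39.7 upstream of its 5' end.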

How the data were processed

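ChIP-seq peak lists of 2 biological replicates on ce11, which is WBcel235, were used as deposited. The deposited signal of a peak is the authors' value, in a unit not named in the files, and the deposited −log10 columns hold q values and the irreproducible discovery rate. No label or header names the aligner or the peak caller, the depth is unknown, and the 32 columns with the paired calls of the ranked lists were not used. Pooled, conservative, replicate 1 and replicate 2 lists hold 1379, 1346, 569 and 545 peaks. Thresholded lists end at a global IDR of 0.01 and were taken as made; 65 ranked peaks passed it but are not in the pooled list, and 0 of these lay within 100 bp of a tRNA gene.

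Summits were set against 612 nuclear tRNA genes of Ensembl release 115 (22 mitochondrial ones left out), with isotypes and 209 pseudogenes from RefSeq. Values of a pooled peak in a replicate are those of the strongest overlapping ranked peak (at least 1 shared bp), so close peaks can share a value. Genes at most 1000 bp apart formed clusters. Intervals are exact (Clopper-Pearson, 95%) and cover counting error only; peaks are not replicates, so no p-value is given. Scripts used Python 3.11.15, pandas 2.3.3, numpy 2.4.6 and scipy 1.17.1, and were tested on simulated peaks. Named genes are the nearest to the 10 strongest and 5 weakest peaks, the strongest of each isotype, those beside the 100 bp limit, and the largest clusters and groups of identical copies; others were chosen after their values were seen. The members and lists were chosen with earlier results of these data known.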

Additional observations from a re-analysis of the deposited data

How the results depend on the processing

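Of 73 recomputed values, 47 kept their direction and size, and the 26 that moved are given here; no direction was called by a test. With a single replicate's list, 96 to 115 peaks lay at tRNA genes, at 104 to 123 genes, with a median summit position of 15.5 to 21 bp and a strength ratio of 0.885 to 0.900; an IDR of 0.001 gave 81 peaks, 87 genes, 21 bp and 0.875, and a q value of 0.05 gave 137 peaks, 146 genes and a ratio of 0.897. Genes whose sequence occurs once had a median position of 21 bp. The strength ratio was 1.14 with a limit of 200 bp and 1.14 with overlap in place of the summit, and for the same peaks, chosen after seeing the data, 1.13 in replicate 1 and 1.09 in replicate 2. Only the stricter or single-replicate lists turned it below 1. The looser B box core, also chosen after seeing the data, gave 96.6% of genes with a peak. A cluster gap of 500 bp put 25% of these genes in clusters and one of 5000 bp 49.6%. A limit of 50 bp left 62.6% of genes without a peak with a ranked summit. Replicate 1 alone had a peak at 1 other polymerase III gene, while replicate 2 alone had one at 1 machinery gene and replicate 1 alone at 0. No paired analysis was possible because there is 1 group. Depth is unknown, so limits set by it cannot be given.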
